A study of Mus musculus with 24 samples.

Results

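The circadian clock genes were followed through H3K27Ac, the acetylation of histone H3 at lysine 27 that marks active promoters and enhancers, in 4 mouse organs kept in different ways. Members were the rows of the deposited table whose symbol was Arntl, Clock, Npas2, Per1, Per2, Per3, Cry1, Cry2, Dbp or Ciart, and all 10 were found among 27179 rows. The table has 8 columns of values, called libraries here, and whether each is 1 sample or merged reads is not given. The organs were brain, heart, kidney and liver. Each was kept by flash freezing (Frozen) or formalin fixation and paraffin embedding (FFPE), with 1 library per combination. Frozen cores were crosslinked in 1% formaldehyde for 30 min, and FFPE tissue was fixed in 10% formalin and had its chromatin extracted at 95 °C for 20 min. The labels give no strain, sex, age, genotype, animal or hour of collection for any group. Clock genes change over the day, so a difference in hour between the mice or preservations cannot be told apart from the differences given here.

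The clock is a transcriptional feedback loop that runs in nearly every cell. CLOCK, or its relative NPAS2, pairs with BMAL1, the product of Arntl, and the pair binds E-box sequences at the genes of its own repressors, the PER and CRY proteins and CIART. The same pair drives Dbp, whose protein acts on D-box sequences in output genes, and in most organs the E-box targets and Arntl peak at opposite times of day.

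The promoter windows that hold recognised clock motifs are shown for the members on which the results below turn, and for Per3. RefSeq entries of GRCm38.p6 were found for 9 members, and the table used has no entry for Per2. Each window is the 250 bases before a transcription start, written 5′ to 3′ on the strand of the gene. It lies at chr3:95882229-95882478 (minus strand) for Ciart, chr11:69098699-69098948 (plus) for the first of the 2 Per1 starts, chr10:85185055-85185304 (minus) for Cry1, chr2:92434070-92434319 (minus) for Cry2 and chr4:151044666-151044915 (minus) for Per3. Capitals mark the motif matches.
Ciart: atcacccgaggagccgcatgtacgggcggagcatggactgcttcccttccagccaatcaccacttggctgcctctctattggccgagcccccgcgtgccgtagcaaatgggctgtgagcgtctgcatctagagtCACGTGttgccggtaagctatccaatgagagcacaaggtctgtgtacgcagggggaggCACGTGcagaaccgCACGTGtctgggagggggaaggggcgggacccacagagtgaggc
Per1: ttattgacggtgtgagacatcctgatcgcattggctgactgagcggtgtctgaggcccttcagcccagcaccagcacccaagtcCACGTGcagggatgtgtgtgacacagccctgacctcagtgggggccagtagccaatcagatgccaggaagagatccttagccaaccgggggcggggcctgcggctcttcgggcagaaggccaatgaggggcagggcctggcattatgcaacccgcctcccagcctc
Cry1: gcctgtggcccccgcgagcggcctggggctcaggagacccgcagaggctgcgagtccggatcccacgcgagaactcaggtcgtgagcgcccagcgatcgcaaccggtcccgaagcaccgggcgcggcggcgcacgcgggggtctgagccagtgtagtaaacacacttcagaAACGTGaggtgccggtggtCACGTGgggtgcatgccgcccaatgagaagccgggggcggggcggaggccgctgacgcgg
Cry2: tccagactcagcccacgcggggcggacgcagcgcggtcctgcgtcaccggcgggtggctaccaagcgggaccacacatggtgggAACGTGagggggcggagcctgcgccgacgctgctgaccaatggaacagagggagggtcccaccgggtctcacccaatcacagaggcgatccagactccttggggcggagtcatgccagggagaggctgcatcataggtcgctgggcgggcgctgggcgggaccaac
Per3: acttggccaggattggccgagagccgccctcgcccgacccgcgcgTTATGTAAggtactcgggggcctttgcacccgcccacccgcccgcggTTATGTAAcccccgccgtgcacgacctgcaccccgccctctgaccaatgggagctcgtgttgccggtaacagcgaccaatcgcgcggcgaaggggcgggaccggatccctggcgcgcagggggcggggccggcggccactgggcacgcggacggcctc

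Ciart had the E-box CACGTG at 3 places, beginning 116, 58 and 44 bases before its start. The E-box occurred once for Per1, at 166 bases, and once for Cry1, at 60 bases. CACGTT, an E-box variant, was found on the opposite strand at 79 bases for Cry1 and at 166 bases for Cry2. Per3 had the D-box TTATGTAA at 205 and at 158 bases. The other motifs searched, on both strands, were TTACGTAA (a further D-box form), TAGGTCA (the core of the element bound by ROR and REV-ERB proteins) and TGACGTCA (the cyclic AMP element), and none of the member windows held them. E-boxes were in 6.02% of 32851 promoter windows of this length in the table, CACGTT in 3.85% and TTATGTAA in 0.819%, while TTACGTAA, TAGGTCA and TGACGTCA were in 0.113%, 2.23% and 1.55%. The motifs do not overlap one another in these windows. A match is a description of letters and not of binding.

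H3K27Ac was read as log2 CPM, the log2 of each gene's reads scaled to library size by the authors. Members had between 80 and 1442 reads in a library, and libraries had between 4404789 and 6164562 reads in all. The median of 5 neuron genes was 6.09 and 6.54 in brain (Frozen, then FFPE), that of 5 cardiomyocyte genes 6.36 and 6.14 in heart, that of 5 nephron genes 6.38 and 6.58 in kidney and that of 5 hepatocyte genes 7.63 and 6.66 in liver. In libraries of other organs these medians ran from 3.79 to 5.06, 3.10 to 4.23, 4.42 to 5.31 and 3.47 to 4.12. Nphs1, the nephrin gene of podocytes, went against its organ, at 4.90 and 5.03 in kidney and 5.20 to 5.59 in brain and liver. The spread over genes was wider in heart Frozen and liver Frozen, with SDs of 2.40 and 2.39, than in the other 6 libraries, with 1.94 to 2.09. In whole tissue, fewer cells with the mark and less mark per cell cannot be told apart.

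**Figure D1:**
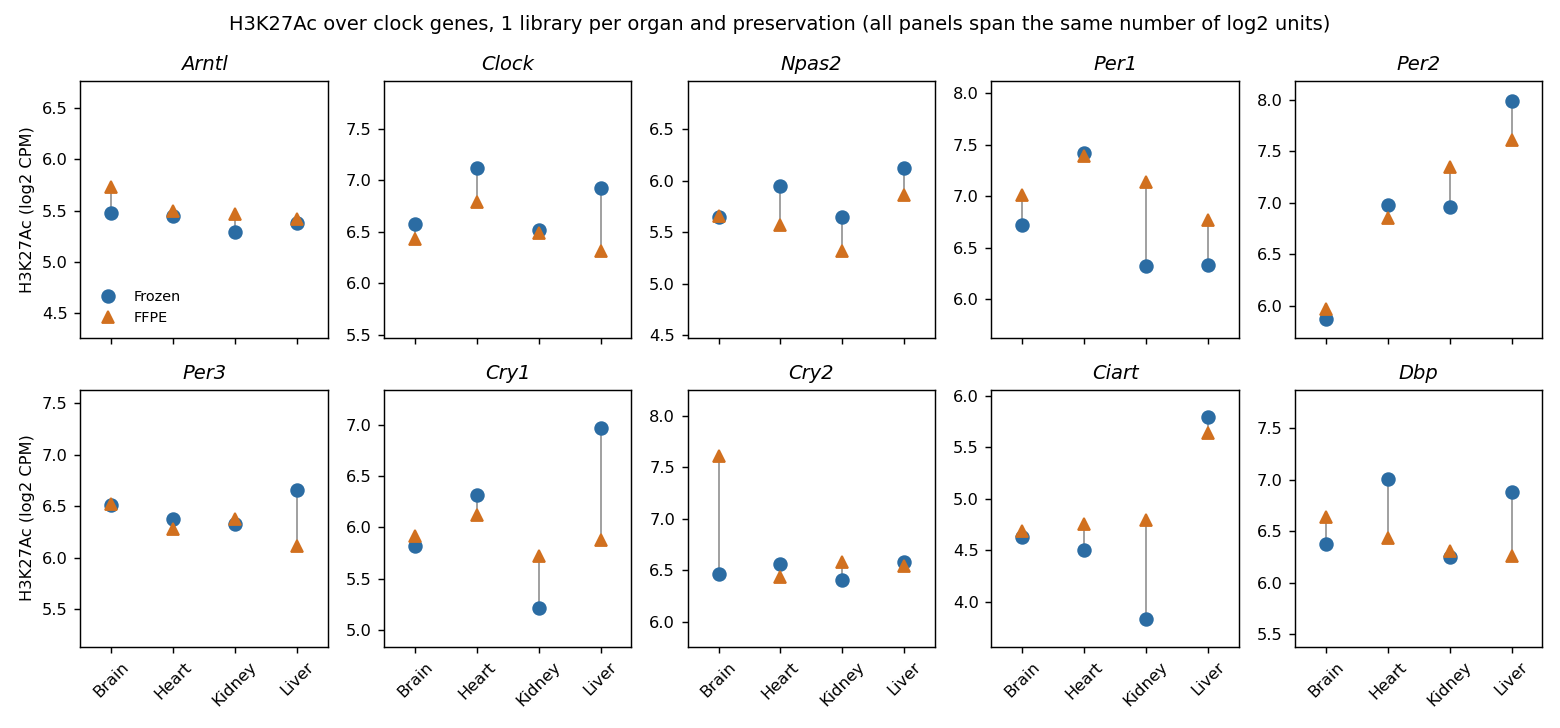
H3K27Ac (log2 CPM, y axis) over each clock gene by organ (x axis) in the Frozen (circles) and FFPE (triangles) library, with a grey line joining the 2 libraries of an organ and no error bar because there is 1 library per group. Per2 climbs from about 5.9 in brain to 7.99 in liver Frozen, Ciart stands at 5.64 and 5.79 in liver, and Arntl stays between 5.29 and 5.73.

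Most members differed less between libraries than a typical gene. The gap between the highest and lowest of the 8 libraries had a median of 0.95 (log2) over the 10 members, against 1.40 over 23010 genes with a mean of at least 20 reads. Arntl had a gap of 0.43, smaller than that of nearly all those genes (percentile 1.08), and Per3 a gap of 0.55 (percentile 3.19). Per2 had the widest gap among members, 2.12 (percentile 81.5), followed by Ciart with 1.96 and Cry1 with 1.75. These percentiles are not matched on reads, and genes with fewer reads have more counting error.

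Between the highest and lowest libraries the activators Arntl, Clock and Npas2 had gaps of 0.43, 0.81 and 0.81. Among the other members Per3 had 0.55 and Dbp 0.76. Arntl, whose protein BMAL1 is the partner that the loop cannot do without, ran from 5.29 log2 CPM in kidney Frozen to 5.73 in brain FFPE. Clock, its histone acetyltransferase partner, lay between 6.31 (liver FFPE) and 7.12 (heart Frozen), and heart had the highest organ mean. Npas2, which can stand in for Clock and is known from the forebrain, ran from 5.31 in kidney FFPE to 6.13 in liver Frozen. Its brain libraries, at 5.65 and 5.66, lay below both liver libraries.

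Each organ was then compared with the mean of the other 3 over both preservations in a limma model with organ and preservation. The question is how clock genes differ between organs. A gene passed when its Benjamini-Hochberg adjusted p over 26944 genes was under 0.05. No activator passed in any organ by limma, here or under any alternative run. The nearest was Clock in heart, at 0.41 ± 0.21 (log2, SE) with adjusted p = 0.176 and a 95% interval of -0.0057 to 0.83. Arntl differences lay between -0.11 in kidney and 0.18 in brain.

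Per2, a period gene that also answers to systemic cues such as glucocorticoids, separated the organs most. Its level was 7.99 and 7.61 in liver (Frozen, then FFPE), 6.95 and 7.35 in kidney, 6.97 and 6.86 in heart, and 5.87 and 5.97 in brain. In these values both brain libraries lay below all other libraries and both liver libraries above them, while heart and kidney overlapped. With medians and spreads of the libraries made equal, liver Frozen was at 7.37, below kidney FFPE at 7.52. After quantile normalization these 2 libraries were at 7.43 and 7.53. In brain Per2 was lower by -1.37 ± 0.21 (log2, SE), a fold of 0.388, with limma adjusted p = 1.00e-05. In liver it was higher by 1.14 ± 0.21, a fold of 2.20, with limma adjusted p = 1.10e-04. The brain difference was -1.43 among Frozen and -1.30 among FFPE libraries, and the liver difference 1.39 and 0.88.

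Ciart, a repressor of CLOCK and BMAL1 activity, stood out in liver. It had 5.79 log2 CPM in liver Frozen and 5.64 in liver FFPE. The Frozen and FFPE values were 4.63 and 4.68 for brain, 4.50 and 4.76 for heart, and 3.83 and 4.80 for kidney. Both liver libraries were above all others, and the other 3 organs overlapped. The liver difference was 1.18 ± 0.24, a fold of 2.27, with limma adjusted p = 4.14e-04. Without liver Frozen it was 0.90 with adjusted p = 0.104. Ciart lies wholly within the span of the long non-coding RNA gene C920021L13Rik, and the sources used here do not say how reads shared by overlapping genes were assigned. C920021L13Rik itself was at 0.33 ± 0.23 in liver, with limma adjusted p = 0.356.

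Per1, the period gene that responds fastest to light and hormonal signals, was highest in heart. It had 7.42 and 7.39 in heart (Frozen, then FFPE), 6.72 and 7.01 in brain, 6.32 and 7.14 in kidney, and 6.33 and 6.77 in liver. In these values both heart libraries were above all others, and the other organs overlapped. With medians and spreads of the libraries made equal, heart Frozen was at 6.88, below brain Frozen at 7.10 and brain FFPE at 7.36. After quantile normalization it was at 7.04, against 7.06 and 7.16 in brain. The heart difference was 0.69 ± 0.21, a fold of 1.61, with limma adjusted p = 0.0214. It did not pass with medians and spreads of the libraries made equal (0.32, adjusted p = 0.233), after quantile normalization (0.41, adjusted p = 0.0997), without a variance trend (adjusted p = 0.143), without heart Frozen (0.42, adjusted p = 0.644) or without kidney Frozen (0.59, adjusted p = 0.114). The median of 3 endothelial markers was also highest in heart, at 6.79 and 6.95 against 4.77 to 6.01 in the other libraries, and its part in the Per1 difference was not tested.

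The cryptochromes, the strongest repressors of the loop, did not pass in any organ in the values as deposited with all libraries. Cry1 had 6.97 and 5.88 in liver (Frozen, then FFPE), 6.32 and 6.12 in heart, 5.82 and 5.92 in brain, and 5.21 and 5.72 in kidney. Both kidney libraries were below all others, and the 2 liver libraries were far apart. Kidney was at -0.70 ± 0.23 with limma adjusted p = 0.0772, and liver at 0.57 ± 0.23 with limma adjusted p = 0.0788. Liver went to 1.18 without liver FFPE and to -0.036 without liver Frozen, and was 0.63 without brain FFPE and 0.72 without kidney FFPE. Kidney was at -0.76 without brain Frozen and -0.91 without liver FFPE. Cry1 passed in some of these runs.

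Cry2 had 7.61 in brain FFPE, the highest value of the 8, and 6.46 in brain Frozen. The other 6 libraries ran from 6.40 to 6.58, so brain Frozen lay among them. The brain difference was 0.52 ± 0.23 with limma adjusted p = 0.0953. It passed with medians and spreads of the libraries made equal (0.96, adjusted p = 4.00e-04), after quantile normalization (0.79, adjusted p = 0.00139) and without brain Frozen (1.09, adjusted p = 0.0043), and was -0.052 without brain FFPE. The neuron markers moved with Cry2 between the brain libraries, from a summed CPM of 312 over 5 genes in Frozen to 508 in FFPE, while 4 glia markers went from 223 to 194. Their part in the result was not tested.

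Per3, the period gene that the core loop can lose without stopping, had its lowest value, 6.11, in liver FFPE and its highest, 6.66, in liver Frozen, so that liver held both ends. Dbp, an output factor that rises and falls steeply over the day in RNA, ran from 6.25 in kidney Frozen to 7.01 in heart Frozen. No organ difference of either gene passed in the values as deposited, and those of Dbp lay between -0.32 in kidney and 0.27 in heart. Per3 was called higher in brain with medians and spreads of the libraries made equal (0.55, adjusted p = 0.0158) and after quantile normalization (0.45, adjusted p = 0.0389). Dbp overlaps 741 bases of Sphk2, which encodes a sphingosine kinase. Sphk2 was higher in liver by 1.16 ± 0.22 with limma adjusted p = 1.55e-04, where Dbp was at 0.067 ± 0.21.

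**Figure D2:**
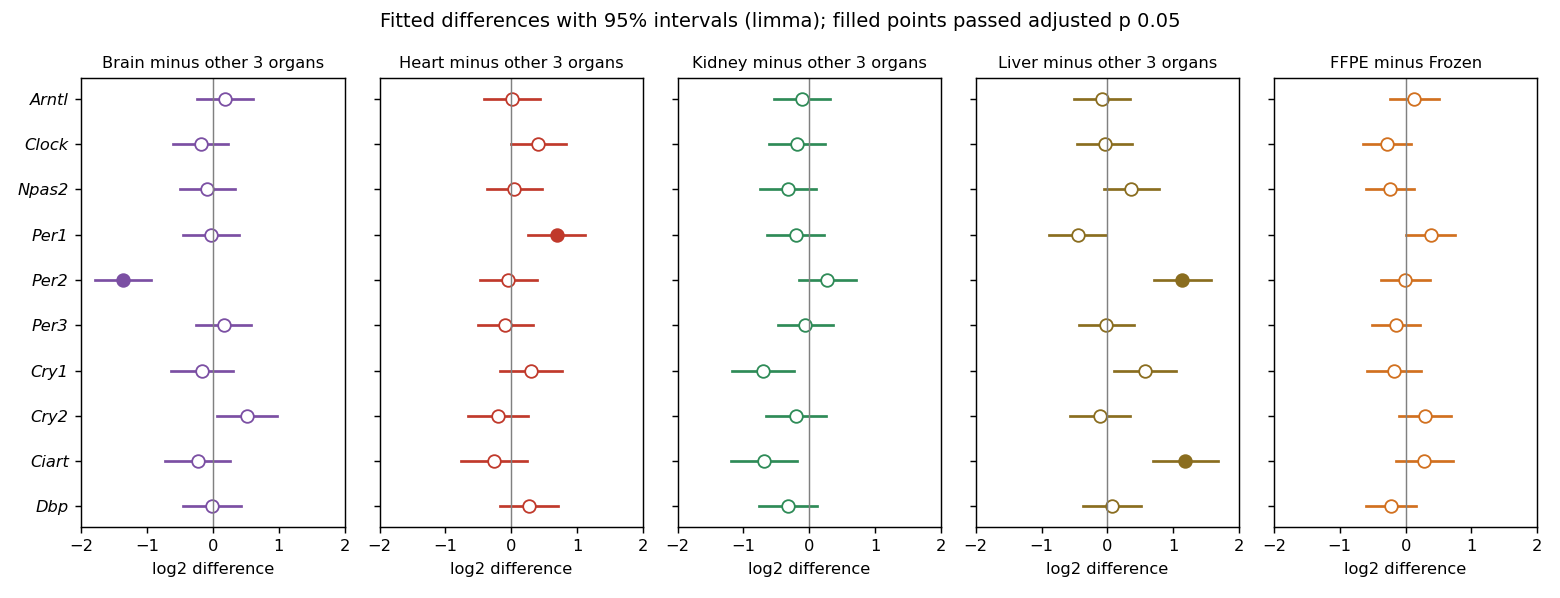
Fitted log2 differences (x axis) for each clock gene (y axis) with 95% intervals from limma, in a panel for each organ against the other 3 and a panel for FFPE against Frozen, where filled points passed adjusted p under 0.05. Filled points are Per2 in brain (-1.37) and liver (1.14), Per1 in heart (0.69) and Ciart in liver (1.18), and the FFPE panel has none.

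Counted over members, 1 of 10 was lower in brain and none higher, 1 was higher in heart, 2 were higher in liver and none passed in kidney. Over all 26944 genes, the brain comparison called 22.4% (13.6% lower and 8.73% higher), heart 16.7% (9.42% higher and 7.31% lower), liver 20.9% (11.2% higher and 9.73% lower) and kidney 5.22% (3.19% higher and 2.03% lower). The counts of members are near this background and say nothing particular of clock genes. As deposited, non-overlapping libraries gave 1 member lower in brain, 1 higher in heart, 1 lower in kidney and 2 higher in liver. All genes gave 11.7%, 8.94%, 2.92% and 9.60% in that order. In the other direction no member stood apart, where all genes gave 13.1% for brain, 6.40% for heart, 4.76% for kidney and 8.94% for liver. The median difference over members was -0.21 in kidney, where 9 of 10 were negative, and -0.058, 0.029 and 0.026 in the brain, heart and liver comparisons. Over all genes it was -0.017 in kidney and 0.037, -0.039 and -0.059 in the others. The smallest limma adjusted p among members in kidney was 0.0772, for Cry1. Voom weights called Cry1 lower there, quantile normalization called Per2 higher, and equal median and spread called Per2 higher and both Cry1 and Ciart lower. Both scalings also changed the other counts. Each gave 2 members higher in brain (Cry2 and Per3) beside 1 lower, none in heart, and 2 higher in liver beside 1 lower. The lower member in liver was Per1, at -0.66 (limma adjusted p = 0.00584) under equal median and spread and -0.65 (limma adjusted p = 0.00625) after quantile normalization. The all-gene shares above hold for the values as deposited. More of all genes also passed in brain and kidney at equal median and spread, so member counts under the scalings cannot be set against those shares.

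The genes beside the members were looked at after their values had been seen. Hes6, a helix-loop-helix gene that ends 1939 bases from Per2, was also higher in liver, by 0.92 ± 0.24 with limma adjusted p = 0.00489, and lower in brain, by -0.70 ± 0.24 with limma adjusted p = 0.033. Hes7, which lies 8941 bases beyond Per1, was higher in heart by 1.20 ± 0.23 with limma adjusted p = 2.30e-04. Vamp2, on the other side of Per1, was at 0.59 ± 0.22 there with limma adjusted p = 0.0673. The other genes next to Per1, Per2 and Ciart did not pass in the organs where those members passed. Traf3ip1, on the other side of Per2, was at -0.29 ± 0.22 in brain (limma adjusted p = 0.383) and 0.56 ± 0.22 in liver (limma adjusted p = 0.0732). Beside Ciart, liver had Mrps21 at 0.67 ± 0.41 (limma adjusted p = 0.279) and BC028528 at 0.026 ± 0.37 (limma adjusted p = 0.976). Some neighbours passed in other organs or beside other members. BC028528 was lower in brain by -1.16 ± 0.37 (limma adjusted p = 0.0211) and higher in heart by 1.12 ± 0.37 (limma adjusted p = 0.0337). Mapk8ip1, beside Cry2, was higher in brain by 1.40 ± 0.23 with limma adjusted p = 2.86e-05. Whether neighbours share signal was not tested.

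Other genes of the clock were taken from a list of 23. In brain 6 were lower and 1 higher, in heart 7 were higher, in kidney 1 was lower, and in liver 5 were higher and 2 lower. All genes gave 13.6% lower and 8.73% higher in brain, 9.42% higher in heart, 2.03% lower in kidney, and 11.2% higher and 9.73% lower in liver. Medians of the list were -0.25, 0.18, -0.15 and 0.27 in that order. In brain the leading genes were Tsc22d3, a glucocorticoid-induced regulator, at -1.51 ± 0.24, Bhlhe40, a repressor that competes for E-boxes, at -0.95 ± 0.22, and Wee1, a kinase of the cell cycle under clock control, at -0.92 ± 0.21. Rorb, the orphan receptor gene expressed in cortex and retina, was the 1 higher in brain, by 0.66 ± 0.22. Without brain Frozen, and without a variance trend, Tsc22d3 was the 1 gene lower in brain.

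In heart the leading genes were Tsc22d3 at 1.11 ± 0.24, Bhlhe41, the relative of Bhlhe40, at 0.96 ± 0.23, and Timeless, a replication fork gene related to the fly clock gene, at 0.88 ± 0.21. Nr1d1, which encodes the repressor REV-ERB alpha of the Arntl promoter, was higher in heart by 0.87 ± 0.23 with limma adjusted p = 0.00722, at 7.67 and 7.43 log2 CPM (Frozen, then FFPE). Liver Frozen, at 7.20, was the next library. Nampt, the enzyme of NAD salvage, was higher in heart by 0.87 ± 0.20. Under equal median and spread, and under quantile normalization, heart had 5 of the list higher and 2 lower, Rorb and Tef. None of the list passed in heart without heart Frozen or without a variance trend, and 4 passed without heart FFPE.

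In liver Tsc22d3 was higher by 0.78 ± 0.24 and Bhlhe40 by 0.71 ± 0.22, while Bhlhe41 was lower by -0.74 ± 0.23. Both relatives of Dbp that bind the same D-box passed there. Hlf was higher by 0.66 ± 0.21 and Tef by 0.59 ± 0.21, and Nfil3, the repressor of that element, by 0.66 ± 0.23. Usp2, a deubiquitinase gene that is rhythmic in most organs, was lower by -0.66 ± 0.22. In kidney Bhlhe41 was lower by -0.81 ± 0.23, and it did not pass there without heart Frozen, without either kidney library or without a variance trend. With medians and spreads of the libraries made equal, liver kept 1 gene higher, Nfil3, and had 3 lower. Without liver Frozen, and without kidney Frozen, it had none higher and 1 lower. Leaving out any other library gave 2 to 6 higher, and without a variance trend none passed.

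FFPE was next compared with Frozen over the 4 organs, which asks whether preservation shifts the mark. No member passed by limma, against 3.91% of all genes. No member had FFPE and Frozen libraries that did not overlap, against 3.07% of genes higher and 1.41% lower. Per1 had the widest difference among members, at 0.38 ± 0.18 (log2, SE), with a 95% interval of 0.0077 to 0.75 and limma adjusted p = 0.299. It was higher in FFPE in 3 of 4 organs and -0.024 in heart. With medians and spreads of the libraries made equal it passed, at 0.62 with adjusted p = 0.016, and so it did after quantile normalization, at 0.53 with adjusted p = 0.0438. Voom weights called no member.

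The other 9 members lay between -0.28 for Clock and 0.29 for Cry2. Their intervals still allowed shifts of size. That of Ciart reached 0.71 and that of Clock -0.64, so equality of the preservations is not shown. The median over members was -0.075, against 0.018 over all genes. Of the 23 other clock genes none passed by limma, and their smallest limma adjusted p was 0.0859. Gm7467, a long non-coding RNA gene that lies within the first part of Clock and shares 652 bases with it, fell in FFPE by -0.87 ± 0.19 with limma adjusted p = 0.00425, and was lower in 4 of 4 organs. It was singled out after its values had been seen.

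**Figure D3:**
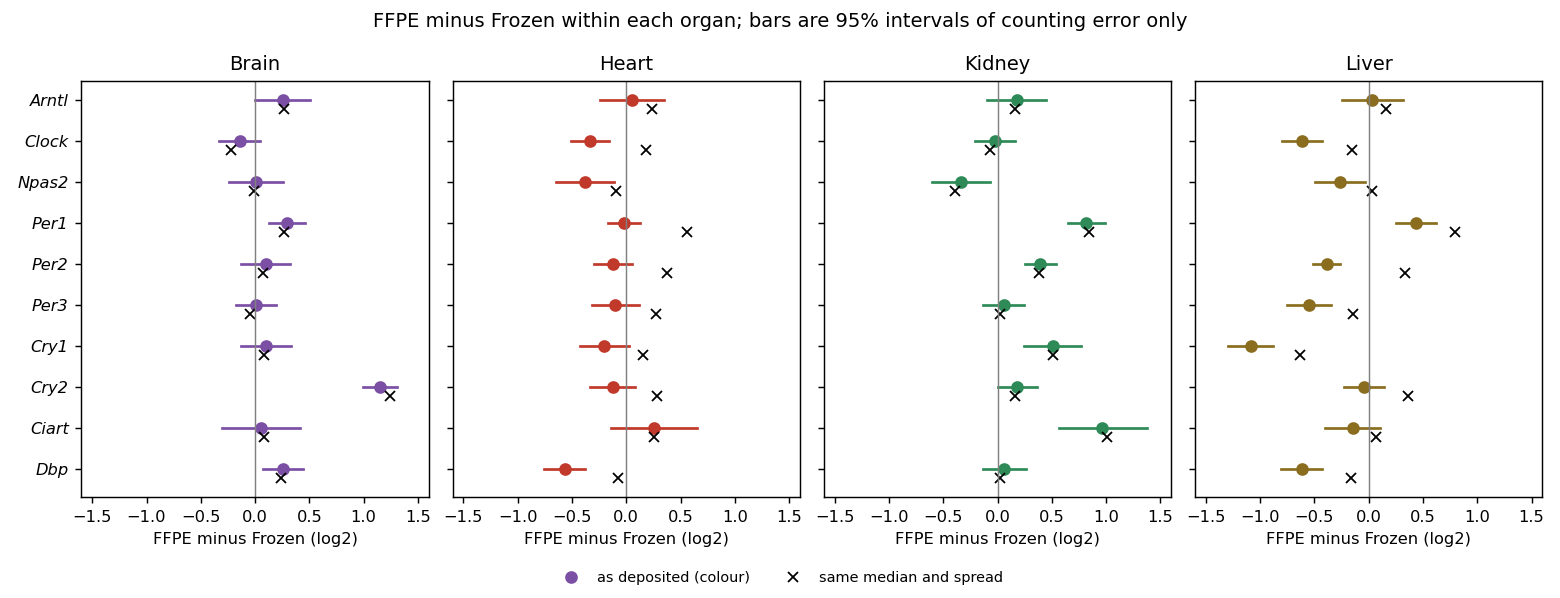
FFPE minus Frozen (log2, x axis) for each clock gene (y axis) within each organ, as deposited (coloured points, with exact 95% intervals of counting error only) and with medians and spreads of the libraries made equal (crosses). Cry2 in brain (1.15) and Cry1 in liver (-1.09) are the points past 2-fold, and crosses in heart and liver lie mostly to the right of the points.

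Within an organ there is 1 library on each side, so these differences have no test and their intervals cover counting error only. Of 40 differences, 18 had an exact Clopper-Pearson 95% interval that left out 0. In brain 3 of the 10 members lay above 0 and none below, where 17.5% of genes with at least 40 reads over the pair of libraries lay above and 14.5% below. Heart had none above and 3 below (all genes 18.4% and 32.6%), kidney 4 above and 1 below (21.0% and 18.9%), and liver 1 above and 6 below (24.6% and 32.9%). Genes with more reads have narrower intervals, and these shares are not matched on reads. Of those 18, 15 kept their sign under equal median and spread and under quantile normalization. The other 3, Clock in heart and Npas2 and Per2 in liver, turned under both. Past 2-fold were 1 member upward in brain, where 2.53% of these genes were higher and 1.83% lower, and 1 downward in liver, where 6.95% were higher and 6.68% lower. No member was past it in heart, where 5.43% of genes were higher and 3.86% lower, or in kidney, where 2.50% were higher and 2.76% lower. This count moved with the scaling. Under equal median and spread Cry2 in brain was at 1.24, Ciart in kidney at 1.01 and Cry1 in liver at -0.63, and after quantile normalization they were at 0.99, 1.02 and -0.62.

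Cry2 had 941 reads in brain FFPE and 509 in brain Frozen, a ratio of 2.22 after scaling (1.99 to 2.48). The non-coding gene D930015M05Rik, which lies within the span of Cry2, differed alike in brain, by 1.11, with 187 and 104 reads. The flanking genes Mapk8ip1 and Slc35c1 differed there by 0.29 and 0.62. In heart, kidney and liver Cry2 differed by -0.13, 0.18 and -0.041.

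Cry1 had 269 reads in liver FFPE and 708 in liver Frozen, a ratio of 0.471 (0.407 to 0.542). In kidney it went the other way, with 277 and 209 reads and a ratio of 1.42 (1.18 to 1.71). Both signs held under equal median and spread, at -0.63 and 0.51. Per2 also differed in opposite directions, by 0.39 in kidney and -0.39 in liver, but the liver value turned to 0.33 under equal median and spread.

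In kidney the widest member differences were upward in FFPE. Ciart had 146 reads in FFPE and 80 in Frozen, a ratio of 1.95 (1.48 to 2.60), and Per1 had 743 and 452, a ratio of 1.76 (1.57 to 1.99). With Per2 and Cry1 these were the 4 members whose kidney interval lay above 0, while Per3 (0.056, -0.14 to 0.25) and Cry2 (0.18, -0.00018 to 0.37) had intervals that held 0. Npas2 was the 1 member whose interval lay below 0, at -0.34 with 209 and 283 reads. The middle 95% of genes in kidney ran from -1.03 to 1.00, so each of these values lay within the spread of all genes. The median of 3 endothelial markers was 5.03 in kidney Frozen and 6.01 in kidney FFPE, with a summed CPM of 144 and 217, and its part in these differences was not tested.

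The balance of E-box targets and activators was taken as the mean log2 CPM of Dbp, Per1, Per2, Per3 and Ciart minus that of Arntl, Clock and Npas2. The members differ in length and values follow gene span, so this balance has meaning only between libraries. It was 0.12 in brain Frozen and 0.23 in brain FFPE. Kidney had 0.12 and 0.64, heart 0.28 and 0.39, and liver 0.59 and 0.61. FFPE was thus above Frozen by 0.52 in kidney, 0.11 in heart, 0.10 in brain and 0.027 in liver. It stayed above in 4 of 4 organs under equal median and spread, by 0.11 to 0.56, and under quantile normalization, by 0.078 to 0.56. This count rests on the choice of targets, which was made with values known. With Cry1, also a target, among them the liver difference turned to -0.11, and with Cry1 and Cry2 to -0.062, while the other organs stayed above by 0.093 to 0.53. These sets were added after seeing the data. As first defined, the 95% interval of Poisson counting error (normal approximation) lay above 0 in kidney (0.35 to 0.69) and held 0 in brain (-0.064 to 0.27), heart (-0.068 to 0.28) and liver (-0.13 to 0.18). No p is given for a score over chosen genes.

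**Figure D4:**
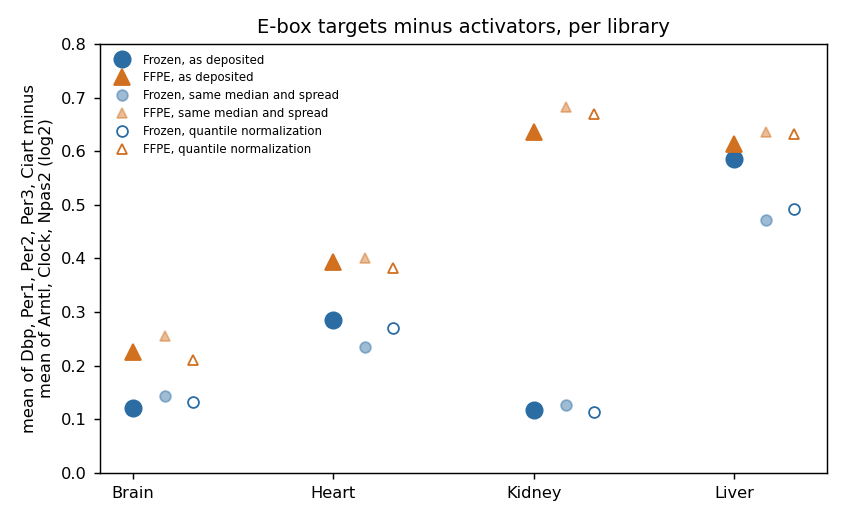
Mean of Dbp, Per1, Per2, Per3 and Ciart minus mean of Arntl, Clock and Npas2 (log2 CPM, y axis) in each organ (x axis) for Frozen (circles) and FFPE (triangles), as deposited (large), at the same median and spread (small, filled) and after quantile normalization (small, open), without error bars because there is 1 library per group. Kidney shows the widest gap, 0.12 against 0.64, and liver is at 0.59 and 0.61.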

How the data were processed

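Per the submitters' processing notes, reads were processed with Bowtie2, featureCounts and limma on mm10. Versions, the counted part of a gene and the treatment of overlapping genes are not stated in those notes or the labels. The labels list 24 samples, 16 H3K27Ac and 8 input, with 2 H3K27Ac samples per group, and the table has 1 column per group with no replicate number, so that whether a column is 1 sample or merged reads is not given. The labels also name 2 library kits and several runs of chromatin immunoprecipitation, which cannot be matched to the columns. An effect of kit or run cannot be told apart from the differences given here. Inputs were not analysed here. The deposited values are log2 values. In each column 100% of them returned whole reads within 0.001 as log2 of reads plus 0.5 over an effective library size, and scaling factors by the authors were 0.749 to 1.22. Reads were used for depth and intervals, and tests used the deposited log2 values.

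Genes at 0 in all libraries (235) were removed. Fits used limma 3.58.1 in R 4.3.3 (lmFit, eBayes with a variance trend), with organ and preservation as terms and 3 residual degrees of freedom, and were tested on simulated data. Organs serve as the replicates of preservation, so a p-value reflects only how these 8 libraries vary, which may be technical. The labels do not say that columns came from separate animals. Members and gene lists were chosen with earlier results of these data known. Named genes were all members, other clock genes that passed for preservation, the 3 largest in each organ that passed, and the most correlated gene per member. Further genes were named after their values were seen. Of the identifiers, 25275 matched RefSeq GRCm38 genes. The alternatives were equal median and spread (by median and MAD), quantile normalization, no variance trend, voom weights, a mean of at least 20 reads, and leaving out each library. For the balance of targets and activators, other target sets and scalings were added after seeing the data. The values of 1 gene of the other clock list are not reported here.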

Additional observations from a re-analysis of the deposited data

Results flagged for a closer look

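Cry2 in brain FFPE, at 7.61 log2 CPM, stood far from the other 3 FFPE libraries, which ran from 6.44 to 6.58. Ciart in liver FFPE, at 5.64, stood far above the other FFPE libraries, at 4.68 to 4.80. In each case the gap to the nearest library exceeded Dixon's 95% critical value for 4 values, among 20 groups of 4 looked at, where chance gives about 1 in 20. The 4 values come from 4 organs, so a difference between organs can exceed this value by itself. The Ciart value also enters the liver comparison above.

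For 3 members the difference of FFPE and Frozen went in opposite directions in different organs, each with a counting interval that left out 0. Per2 was at 0.39 in kidney and -0.39 in liver. Cry1 was at 0.51 in kidney and -1.09 in liver. Dbp was at 0.26 in brain, -0.57 in heart and -0.62 in liver. Under equal median and spread Per2 in liver turned to 0.33, so its directions no longer differed. Dbp shrank to -0.079 in heart and -0.17 in liver, with 0.24 in brain, while Cry1 kept both signs. With 1 library on each side these differences between organs were not tested.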

How the results depend on the processing

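No paired analysis was possible because the columns carry no replicate number, though organ as a term compares FFPE with Frozen within organs. With 1 library per group, each organ rests on 2 libraries and depth limits low genes most. The lowest member value was 80 reads, in Ciart. Per2 passed in brain and in liver under every alternative run, with differences of -1.05 to -1.45 and 0.81 to 1.39.

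Over all genes, 6030 passed in brain, 4508 in heart, 1407 in kidney, 5640 in liver and 1054 for preservation. Without a variance trend these were 2421, 1373, 130, 2677 and 369. In kidney 2375 passed at the same median and spread and 2264 after quantile normalization. Leaving out 1 library gave 2505 (without brain Frozen) to 7242 in brain, 872 (without heart Frozen) to 5251 in heart, 265 (without kidney Frozen) to 1843 in kidney, 2200 (without liver Frozen) to 6005 in liver and 501 (without liver FFPE) to 1969 (without brain Frozen) for preservation. Heart without kidney Frozen gave 3000, kidney without kidney FFPE 403. For preservation, leaving out any heart, kidney or liver library gave 501 to 577, and brain FFPE 1951. Preservation calls were 539 higher and 515 lower, but 287 and 461 over genes with a mean of at least 20 reads and 328 and 41 without a trend. Brain calls were 2353 higher and 3677 lower, but 3574 and 3706 at the same median and spread.

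Members whose fitted difference changed sign had not passed in the comparison concerned. At the same median and spread these were, in brain, Clock 0.22, Cry1 0.15, Dbp 0.39, Npas2 0.16 and Per1 0.40, in heart Arntl -0.13, Dbp -0.025 and Npas2 -0.12, in kidney Per3 0.062, in liver Dbp -0.18, and for preservation Cry1 0.030, Dbp 0.0045, Per2 0.29 and Per3 0.024. After quantile normalization they were, in brain, Clock 0.12, Cry1 0.097, Dbp 0.28, Npas2 0.14 and Per1 0.28, in heart Arntl -0.11 and Npas2 -0.10, in kidney Per3 0.085, in liver Dbp -0.17, and for preservation Cry1 0.015 and Per2 0.24. Voom weights gave Per2 0.00043 for preservation. The liver balance turned from 0.027 to -0.11 with Cry1 and to -0.062 with Cry1 and Cry2 among the targets, a choice made after seeing the data. The cause was not tested.

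Leaving out 1 library, signs also changed for preservation in Cry1 (-0.40 to 0.13) and Per2 (-0.14 to 0.12). In brain these were Cry1 (-0.37 to 0.035), Cry2 (-0.052 to 1.09), Dbp (-0.33 to 0.30), Npas2 (-0.25 to 0.079) and Per1 (-0.13 to 0.068). In heart they were Arntl (-0.041 to 0.060), Cry2 (-0.48 to 0.078), Npas2 (-0.044 to 0.14) and Per2 (-0.13 to 0.046). In kidney they were Per1 (-0.50 to 0.083) and Per3 (-0.19 to 0.077), and in liver Clock (-0.26 to 0.19), Cry1 (-0.036 to 1.18), Cry2 (-0.33 to 0.11), Dbp (-0.20 to 0.33) and Per3 (-0.28 to 0.25).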

Other observations

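Per1 and Per2 also answer to glucocorticoids and to cyclic AMP, and genes known for the same responses were counted. Of 8 glucocorticoid-responsive genes, 7 were lower in brain and 4 higher in heart by limma, 3 were higher in liver, and none passed in kidney or for preservation. Tsc22d3, called in brain, heart and liver, is also among the 23 other genes of the clock, so these lists are not separate. All genes gave 13.6% lower in brain, 9.42% higher in heart, and 11.2% higher and 9.73% lower in liver. In kidney 5.22% of all genes passed, 2.03% of them lower, and for preservation 3.91% passed. Errfi1, an inhibitor of growth factor receptors, was at -1.46 ± 0.20 in brain and 1.46 ± 0.20 in liver, Fkbp5, a co-chaperone of the glucocorticoid receptor, was at -0.90 ± 0.23 and 1.21 ± 0.23. Leaving out 1 library gave 4 to 8 lower in brain, 1 (without heart Frozen) to 5 higher in heart and 2 or 3 higher in liver. Without a variance trend 2 were lower in brain (Errfi1 and Tsc22d3), none passed in heart and 2 were higher in liver (Errfi1 and Fkbp5). Under equal median and spread, and under quantile normalization, Errfi1 was called lower in heart and higher in kidney, and Sgk1 lower in liver. Of 12 immediate early genes, 6 were lower in brain, 7 higher in heart, 1 lower in kidney, and 4 higher and 2 lower in liver. Nr4a1, an orphan receptor gene, was higher in heart by 1.19 and lower in liver by -1.03. In liver Fosb was lower too, by -0.71, and Atf3, Egr1, Junb and Ier2 were higher, by 1.44, 1.07, 0.90 and 0.82. Leaving out 1 library gave 2 (without brain Frozen) to 6 lower in brain, 0 (without heart Frozen) to 9 higher in heart and 0 (without liver Frozen) to 5 higher in liver. Without a variance trend 1, Ier2, was lower in brain and none passed in heart or liver. Errfi1, Fkbp5 and Nr4a1 were singled out after their values had been seen. For preservation none of the 12 immediate early genes passed either, against 3.91% of all genes. The smallest limma adjusted p there was 0.122 for this list and 0.171 for the glucocorticoid-responsive genes. Fosb was called higher in FFPE under equal median and spread and under quantile normalization.

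For each member the gene with the most similar profile over the 8 libraries was taken among 22468 genes with a symbol and a mean of at least 20 reads. The libraries share organs and depth, genes are many, and a high value is a description only. Ciart was most like Otc, which encodes the urea cycle enzyme ornithine transcarbamylase of hepatocytes, with a Pearson r of 0.994 over 8 libraries. Per2 was most like Oaf, with 0.987 and 61 genes at or above 0.95. Per3 and Cry2 each had 1 gene at or above 0.95, Acsf3 and Tubgcp6. The others were Ppp2r1b for Arntl (0.977), Tecr for Clock (0.986), Ciao2a for Npas2 (0.982), Ccdc186 for Per1 (0.976), Mtpn for Cry1 (0.971) and Pusl1 for Dbp (0.967).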
